A study of Mus musculus with 4 samples.

Results

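The nuclear genes that encode the subunits of the mitochondrial respiratory chain were followed in sorted cells of the embryonic mouse spinal cord. Members were chosen by symbol alone: Nduf followed by a, b, c, s or v and a number for complex I, Sdha to Sdhd for complex II, Uqcr for complex III, Cox4 to Cox8 for complex IV, and Atp5 for complex V. A probe set counted only where the platform annotation gave it 1 gene symbol, and each gene was read from its brightest such probe set over the 4 arrays. This gave 81 genes of the 18193 genes named on the array, 35 in complex I, 4 in complex II, 8 in complex III, 17 in complex IV and 17 in complex V. Of these, 77 passed the filter on dim probe sets and were tested. Ndufb4, Ndufa4l2, Cox7b2 and Cox8b did not pass it. Symbol rules take in neighbours in name: Ndufa4 is now assigned to complex IV, Cox7a2l is an assembly factor of supercomplexes, and Cyc1 and Ndufab1, which do belong to complexes III and I, fall outside the rule and are given with the electron carriers.

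The respiratory chain sits in the inner mitochondrial membrane. Complexes I and II pass electrons from NADH and succinate to ubiquinone, complex III passes them to cytochrome c, and complex IV passes them to oxygen. Complexes I, III and IV pump protons, and complex V, the ATP synthase, uses the returning protons to make ATP. Complexes I, III, IV and V are each built from mitochondrial and nuclear gene products together, complex II from nuclear ones alone, and the nuclear genes are known as housekeeping genes with a few paralogues limited to heart, muscle, testis or lung. In the developing nervous system, dividing progenitors are known for strong glycolysis and neurons for a larger share of oxidative phosphorylation.

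The study compared 2 populations of the dorsal neural tube at E10.5, each on 2 arrays described as biological replicates. Both came from transgenic embryos on a mixed B6SJLF1 and ICR background, with tissue taken between the limb levels and cells sorted by GFP. That the GFP-positive fraction was hybridised is a reading of the labels, which name both fractions of the sort. The Atoh1-GFP cells came from the Atoh1BAC-GFP line, in which a bacterial artificial chromosome with the Atoh1 locus drives GFP in precursors of dorsal interneuron 1 (dI1). The dNeurog1-GFP cells came from the dNeurog1-GFP line, in which a Neurog1 enhancer drives GFP in neighbouring precursors, those of dorsal interneuron 2 (dI2). GFP can persist after the promoter is silent, so each sort can hold progenitors and their newborn neurons. How many embryos were pooled for an array is not given in the labels.

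Signals are MAS5 intensities. As deposited, the replicate 1 arrays had a trimmed mean of 250 and the replicate 2 arrays one of 500, so every array was brought to a trimmed mean of 500 first, and all signals below are on that scale. Signals are listed as Atoh1-GFP replicate 1 and 2, then dNeurog1-GFP replicate 1 and 2, and a difference is the Atoh1-GFP mean less the dNeurog1-GFP mean of log2(signal + 32), which understates the change of dim genes. Markers of the sorted types followed the labels: all 5 dI1 markers tested lay higher in both Atoh1-GFP arrays (median difference 3.14) and all 5 dI2 markers lay lower (median -3.06), without overlap. Other marker lists also moved with the populations. Newborn neuron markers had positive differences in 6 of 6 genes (median 0.74) and dividing progenitor markers negative ones in 7 of 8 (median -0.43). Heart muscle markers had positive differences in 7 of 7 genes tested (median 1.22). The summed signals of all 8 heart muscle markers on the array were 2033 and 3958 against 500 and 2249. Red blood cell markers had positive differences in 4 of 4 genes tested (median 1.34), as did endothelial markers in 4 of 4 (median 0.79). The summed signals of all 5 red blood cell markers on the array were 30534 and 31646 against 7736 and 22864. The part of these cells in any respiratory chain value was not tested beyond the values given below.

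Respiratory chain genes were among the brighter genes on the array and lay close to 0 in the comparison of the populations. Their difference ranged from -0.46 for Cox6b2 to 0.59 for Cox7a1, with a median of -0.0005 over the 77 members tested, against 0.004 over all 12751 genes tested. A difference of at most 0.5 in size was found for 76 of 77 members (98.7%), against 81.5% of all genes tested. A difference of at least 1 was found for 0 members, against 4.21% of all genes tested. The median size of the difference was 0.10 for the members, 0.22 for all genes and 0.19 for the 4693 genes with a mean signal of at least 1000, a range that 70 of the 77 members share. Signal was not matched within that range: the median of the mean signals was 5963 for those 70 members and 2136 for the 4693 genes.

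Tested with limma, 0 of 77 members passed an adjusted p of 0.05, where 21 of 12751 genes (0.165%) passed. At an unadjusted p under 0.05 there were also 0 members, against 8.65% of all genes tested. With the replicate number as a block in the model, again 0 members passed the adjusted threshold, against 843 genes (6.61%), and 4 members were under an unadjusted 0.05, against 22.6% of all genes. Those 4 were Ndufa13, with a positive difference, and Sdhd, Uqcr10 and Atp5g1, with negative ones. The lowest adjusted p of a member was 0.73 for Atp5g1 without the block and 0.11 for Sdhd with it. A p above the threshold does not show equal levels, and the intervals say how much these arrays could hide. The median half-width of the 95% confidence interval of a member was 0.56 log2 units, and 0.30 with the block. The whole interval lay within 1 log2 unit of 0 for 68 of 77 members, and for 76 of 77 with the block. In bulk RNA from sorted cells, fewer cells of a type and less RNA per cell cannot be told apart.

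**Figure D1:**
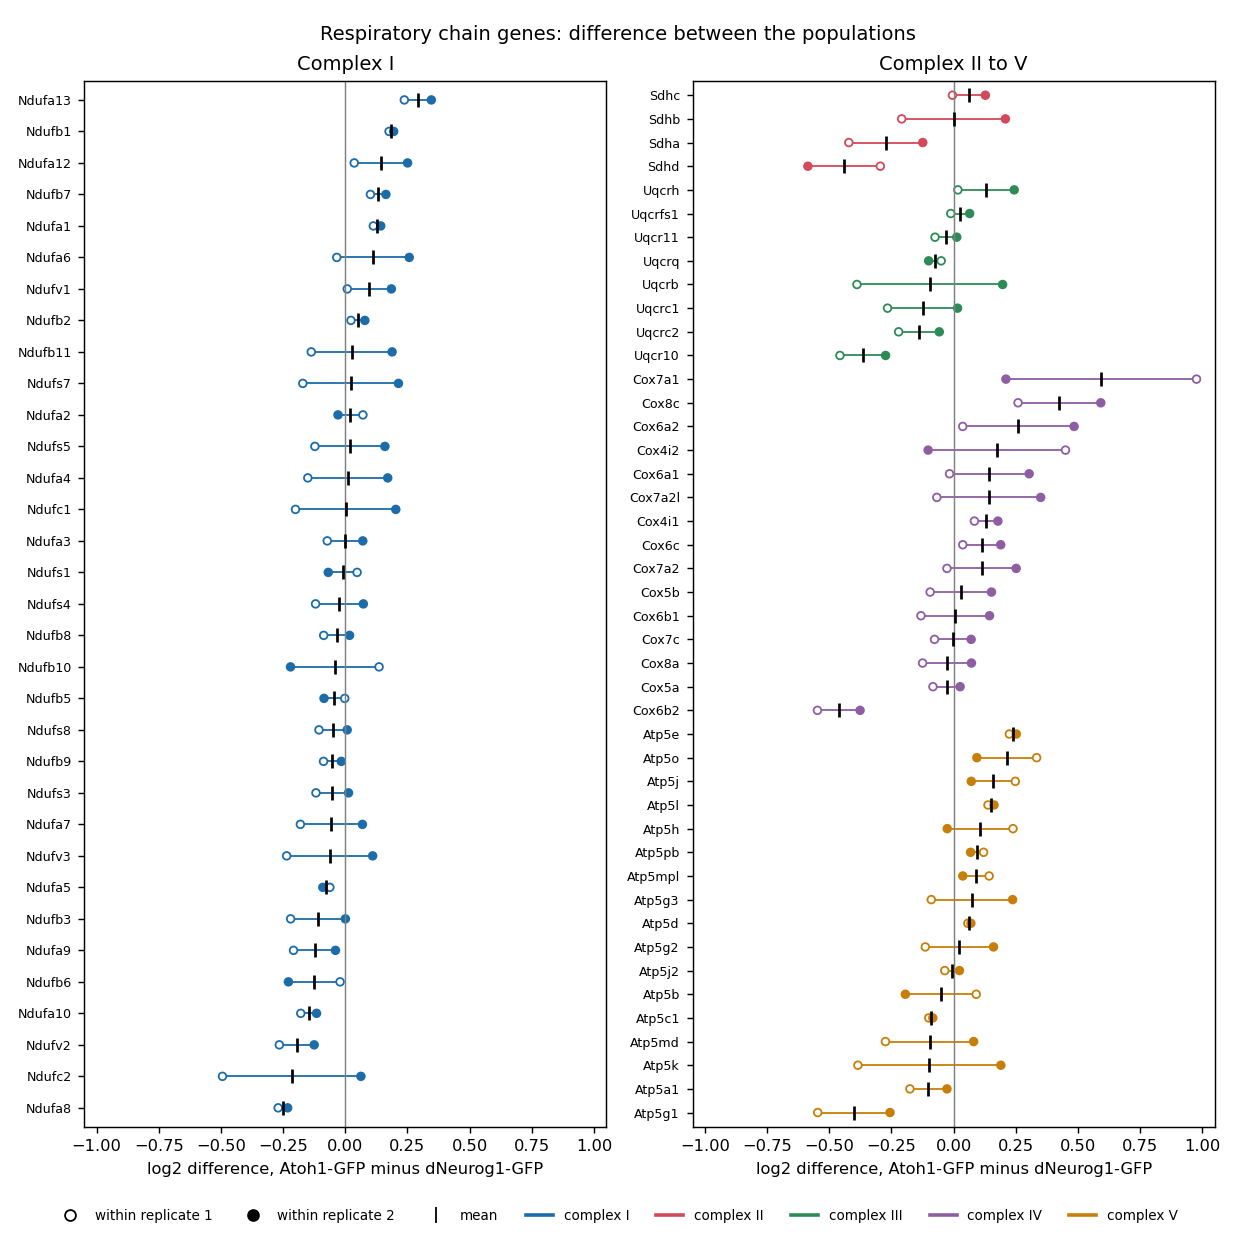
Difference between Atoh1-GFP and dNeurog1-GFP for each of the 77 members tested, on log2(signal + 32), with complex I on the left and complexes II to V on the right. Open circles are the difference within replicate 1, filled circles that within replicate 2, black ticks their mean; 40 of 77 lines cross 0, and only Cox7a1 has a mean beyond 0.5.

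The members leaned in opposite directions within the replicate numbers. Within replicate 1, 51 of 77 members (66.2%) had a negative difference (median -0.08), against 49.3% of all genes tested. Of the genes with a mean signal of at least 1000, 57.8% did, with a median of -0.07 near that of the members. Within replicate 2, 54 of 77 members (70.1%) had a positive difference (median 0.07), against 48.8% of all genes and 51.6% of those brighter genes (median 0.01). Opposite directions were found for 40 of 77 members (51.9%), against 33.0% of all genes tested. The members' differences were also smaller (median size 0.10 against 0.22), and smaller differences change sign more easily. The part of size in this count was not tested. Positive in both were 20 of 77 (26.0%, against 33.3% of all genes), and negative in both were 17 of 77 (22.1%, against 33.8%). Mesenchyme markers also turned with the number, with medians of 0.95 (replicate 1) and -0.34 (replicate 2) and opposite signs in 6 of 6 genes, and their part in the members' values was not tested. Counting arrays without a model, both Atoh1-GFP signals lay above both dNeurog1-GFP signals for 6 members, against 16.1% of all genes tested, and below for 6 members, against 19.0%. The 6 above were Ndufa12, Ndufa13, Ndufb1, Ndufb7, Cox6c and Cox7a1, and the 6 below were Ndufa8, Ndufa10, Ndufv2, Sdha, Uqcrc2 and Atp5g1. With the signals as deposited, whose replicate numbers differ in scale, the count without overlap was 2 of 77 in place of 12, and the share over all genes tested was 11.2% in place of 35.1%.

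**Figure D2:**
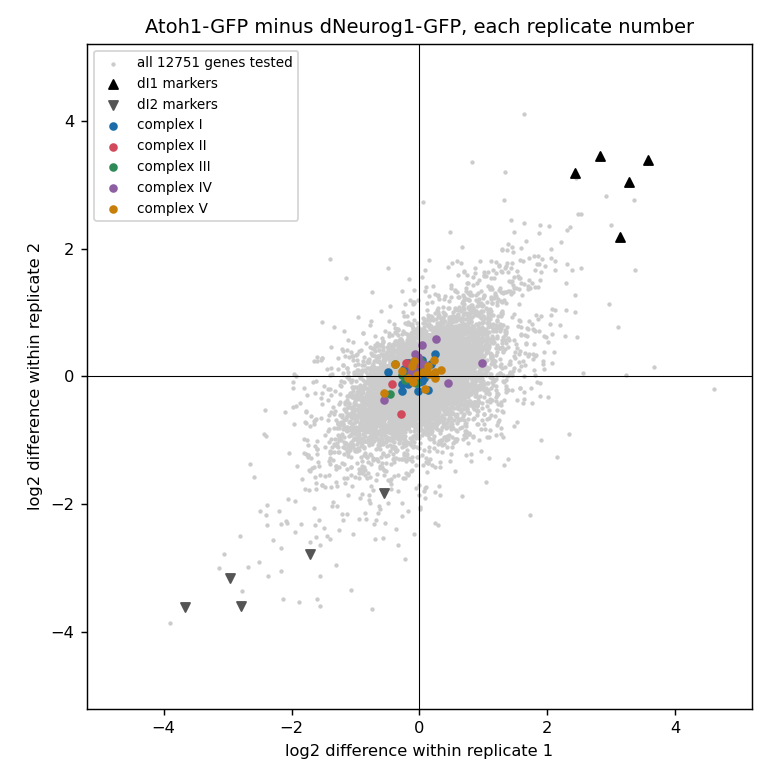
Difference between the populations within replicate 1 (horizontal axis) and within replicate 2 (vertical axis), both in log2 units, for all 12751 genes tested (grey), the 5 dI1 and 5 dI2 markers (triangles) and the 77 respiratory chain members (coloured by complex). The members form a small cloud around 0 while the dI1 and dI2 markers lie at the 2 ends of the diagonal.

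Sequences are shown for the upstream 250 bases of 6 members whose values are described below: the 3 genes of ATP synthase subunit c, which encode the same mature protein and can therefore be compared promoter against promoter, and Ndufa8, Sdha and Sdhd, which had some of the lowest differences of complexes I and II. They are RefSeq promoters on GRCm38.p6, written 5′ to 3′ in the direction of the gene and ending at the base before its start. Capitals mark matches on either strand to GCGCANGCG, the core of the site of NRF-1, or to CCGGAAG, a core of ETS factors such as GABP. Both factors are known as activators of respiratory chain genes, and matches that overlap form 1 run of capitals.
Atp5g1, chr11:96075632-96075881 (minus strand): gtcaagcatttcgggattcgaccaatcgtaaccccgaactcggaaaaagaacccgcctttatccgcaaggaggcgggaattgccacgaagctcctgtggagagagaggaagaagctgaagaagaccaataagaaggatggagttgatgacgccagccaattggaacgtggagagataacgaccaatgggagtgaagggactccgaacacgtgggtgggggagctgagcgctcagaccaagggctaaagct
Atp5g2, chr15:102671048-102671297 (minus strand): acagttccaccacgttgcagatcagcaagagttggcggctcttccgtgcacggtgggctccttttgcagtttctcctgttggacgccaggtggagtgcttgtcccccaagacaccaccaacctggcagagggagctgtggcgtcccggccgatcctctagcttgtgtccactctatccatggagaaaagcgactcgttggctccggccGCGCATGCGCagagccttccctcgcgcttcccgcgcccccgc
Atp5g3, chr2:73911327-73911576 (minus strand): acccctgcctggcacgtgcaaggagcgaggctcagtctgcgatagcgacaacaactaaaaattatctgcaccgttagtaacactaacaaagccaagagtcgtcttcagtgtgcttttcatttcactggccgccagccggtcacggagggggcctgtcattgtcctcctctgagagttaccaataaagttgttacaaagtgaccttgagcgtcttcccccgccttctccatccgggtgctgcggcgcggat
Ndufa8, chr2:36049339-36049588 (minus strand): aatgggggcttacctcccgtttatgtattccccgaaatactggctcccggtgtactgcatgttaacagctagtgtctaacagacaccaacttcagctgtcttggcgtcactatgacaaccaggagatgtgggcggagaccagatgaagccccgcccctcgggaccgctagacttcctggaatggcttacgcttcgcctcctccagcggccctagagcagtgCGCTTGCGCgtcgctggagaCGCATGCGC
Sdha, chr13:74350241-74350490 (minus strand): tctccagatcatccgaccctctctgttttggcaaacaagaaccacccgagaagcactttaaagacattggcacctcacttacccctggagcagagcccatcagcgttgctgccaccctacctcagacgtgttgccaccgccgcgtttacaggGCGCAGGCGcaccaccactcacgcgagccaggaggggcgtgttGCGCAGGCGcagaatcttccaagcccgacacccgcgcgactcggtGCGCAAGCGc
Sdhd, chr9:50603850-50604099 (minus strand): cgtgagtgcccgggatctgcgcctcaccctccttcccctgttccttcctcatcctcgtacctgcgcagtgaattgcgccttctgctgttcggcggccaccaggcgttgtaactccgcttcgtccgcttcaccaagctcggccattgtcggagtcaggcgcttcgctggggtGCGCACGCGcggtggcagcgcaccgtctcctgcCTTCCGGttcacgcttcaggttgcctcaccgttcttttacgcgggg
The subunit c genes differed in this window: Atp5g2 had 1 run of capitals, in which the NRF-1 core matches on both strands, and Atp5g1 and Atp5g3 had 0. Sdha had 3 NRF-1 matches, Ndufa8 had 2, and Sdhd had 1 NRF-1 and 1 ETS match. Other members with negative differences held 0 matches to either core: Cox6b2 (-0.46), Uqcr10 (-0.37), Ndufv2 (-0.20) and Ndufa10 (-0.15). A relation between matches and differences was not tested. Over the 66 members tested that have a promoter in the RefSeq table, 12 (18.2%) held the NRF-1 core, 12 (18.2%) the ETS core and 20 (30.3%) either, with 4 holding both. The shares were 12.3%, 15.1% and 25.2% over the 10268 genes tested that have a promoter there, and 5.86%, 7.83% and 12.7% over all 27025 genes of the table. A match describes letters in the window and not a bound site.

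Complex I takes electrons from NADH through a flavin and a chain of iron-sulfur clusters, held by core subunits, and is wrapped in accessory subunits. Of its 35 genes, 33 were tested and 0 passed the threshold in either model; 14 had a positive and 19 a negative difference, and the median was -0.02 (replicate 1, -0.09; replicate 2, 0.07). The range ran from -0.25 for Ndufa8 to 0.29 for Ndufa13. All 33 lay within 0.5 of 0, and 26 of 33 overlapped between the populations. The core subunits did not stand apart from the accessory ones, with medians of -0.03 over 6 core and -0.02 over 27 accessory genes. The accessory genes were grouped by name and include Ndufa4.

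Ndufs1, the largest iron-sulfur subunit of the NADH-oxidizing arm, had signals of 2100.1 and 2694 against 2031 and 2827. The populations overlapped, and the difference was -0.01 (standard error 0.26). Ndufv1, which binds NADH and the flavin, had signals of 2979 and 4143 against 2963 and 3639.8, a difference of 0.10 (standard error 0.25). Ndufv2, its iron-sulfur partner, was the core gene without overlap: its signals were 6138 and 6868 against 7383 and 7493. Both Atoh1-GFP arrays thus lay below both dNeurog1-GFP arrays, by a difference of -0.20 (-0.27 and -0.13 within the replicate numbers). The limma adjusted p of Ndufv2 was 0.97, and 0.39 with the block. Another Ndufv2 probe set also lay below without overlap (difference -0.08), and the remaining one overlapped (difference -0.51).

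Ndufs3, Ndufs7 and Ndufs8 belong to the arm that hands electrons to ubiquinone. Ndufs3 had signals of 3178 and 4946 against 3451 and 4901, and Ndufs8 of 3469 and 5686 against 3735 and 5656, with a difference of -0.05 for each. Ndufs7, which carries the last cluster before ubiquinone, had signals of 1706 and 4113 against 1925 and 3542. Here the replicates differed far more than the populations: both replicate 2 arrays lay above both replicate 1 arrays, and the difference between populations was 0.02 (standard error 0.46, and -0.17 and 0.21 within the replicate numbers). A second Ndufs7 probe set, with 2234 and 2660 against 2572 and 2968, was negative in both replicate numbers (-0.20 and -0.16). On their brightest probe sets, all 6 Ndufs genes tested pointed in opposite directions in the 2 replicate numbers. Some other probe sets of Ndufs4 and Ndufs8 had the same sign in both. Ndufs6 was not among the genes tested, and a probe set shared with Ndufs6b was negative in both (-0.25 and -0.21).

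Among accessory subunits, Ndufa8, a subunit of the intermembrane space side, had signals of 2583 and 2988 against 3121 and 3514. Both Atoh1-GFP arrays were below both dNeurog1-GFP arrays, a difference of -0.25 that was nearly equal within the replicate numbers (-0.27 and -0.23; limma adjusted p = 0.96, and 0.25 with the block). Ndufa10 had signals of 3548 and 3548 against 4021 and 3847, a difference of -0.15 (standard error 0.19). Ndufa13, also known as GRIM-19, went the other way, with signals of 5746 and 6960.1 against 4869 and 5469. Its Atoh1-GFP arrays lay above both dNeurog1-GFP arrays, with a difference of 0.29 (0.24 and 0.35), and its limma adjusted p was 0.88, and 0.20 with the block. Ndufa12 (7201 and 8329 against 7022 and 6997, difference 0.14) and Ndufb1 (354 and 359 against 309.5 and 309.8, difference 0.19) also lay above without overlap. The other Ndufa12 probe sets had negative differences: one lay below without overlap (4827 and 4825 against 5393 and 5481, difference -0.17) and the other overlapped (difference -0.08). Ndufb7, named after its values were seen, completed this set with 5765 and 6181 against 5373 and 5516, a difference of 0.13. A second Ndufb7 probe set overlapped, with a difference of 0.08.

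Some complex I genes could not be read from a probe set of their own. Ndufb4 was listed under a single symbol only by a dim probe set (82.1 and 28.8 against 86.2 and 43.0), which failed the filter, while a probe set shared with Ndufb4b and Ndufb4c had signals of 3620 and 5288 against 3506 and 5207. That shared probe set cannot separate the copies, and its difference was 0.05 within replicate 1 and 0.02 within replicate 2. In all, 9 probe sets of respiratory chain genes carried several symbols and were left out. Ndufa4l2, a paralogue of Ndufa4 known from hypoxic cells, failed the filter at 51.0 and 77.4 against 39.0 and 22.8.

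Complex II, succinate dehydrogenase, is shared with the citrate cycle and has only nuclear subunits. Of its 4 genes 3 had a negative difference, a median of -0.14 over all 4 (replicate 1, -0.25; replicate 2, 0.002), and 0 passed the threshold in either model. Sdha, the flavin subunit that oxidizes succinate, had signals of 3218 and 3549.9 against 4321 and 3872. The Atoh1-GFP arrays lay below the dNeurog1-GFP arrays without overlap, with a difference of -0.27 (-0.42 and -0.12; limma adjusted p = 0.91, and 0.27 with the block). A second Sdha probe set gave -0.35, whereas the remaining dim one (179 and 62.7 against 55.0 and 51.5) gave 0.73, and the mean over all 3 was 0.04.

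Sdhd, a membrane anchor that binds ubiquinone, had signals of 2038 and 1132 against 2508 and 1716. The populations overlapped because replicate 1 was brighter in both, yet within each number the Atoh1-GFP array was the lower one (-0.29 and -0.59). Its difference was -0.44, with a limma adjusted p of 0.92, and 0.11 with the block, where the 95% interval ran from -0.76 to -0.12. A second, dimmer Sdhd probe set gave -0.04, with opposite signs in the replicate numbers (0.41 and -0.49). Sdhb, the iron-sulfur subunit, had signals of 5219 and 6778 against 6038 and 5863, a difference of -0.001. Sdhc, the other membrane anchor, had signals of 2889.6 and 2464 against 2899 and 2253, a difference of 0.06. A second Sdhc probe set gave 0.31 (0.28 and 0.33). The anchors therefore had unlike values, whose size varied with the probe set, and the difference between them was not tested.

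Complex III passes electrons from ubiquinol to cytochrome c. All 8 of its genes were tested and 0 passed the threshold in either model; 6 had a negative difference, with a median of -0.09 (-0.15 and 0.01 within the replicate numbers). Uqcrfs1, the Rieske iron-sulfur protein at the catalytic centre, had signals of 3751 and 4957 against 3781 and 4740.2, a difference of 0.03. Of the core proteins, Uqcrc1 had signals of 3904 and 5493 against 4701 and 5434 (difference -0.13, with overlap). Uqcrc2 had signals of 4897 and 5378 against 5715 and 5599.9 (difference -0.14, without overlap; limma adjusted p = 1.00, and 0.53 with the block). A second Uqcrc2 probe set of nearly equal brightness overlapped, with a difference of -0.07. Uqcr10, a small subunit named after its values were seen, had the lowest difference of the complex. Its signals were 2013 and 2846 against 2776 and 3448, so that the populations overlapped while each Atoh1-GFP array was below its dNeurog1-GFP partner in number (-0.46 and -0.27). The difference was -0.37 (limma adjusted p = 0.88, and 0.14 with the block), and its other 2 probe sets gave -0.58 and -0.28.

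Complex IV, cytochrome c oxidase, reduces oxygen, and several of its nuclear subunits come as a widely expressed form and a tissue-limited form. Of its 17 genes, 15 were tested, 0 passed the threshold in either model, and 11 had a positive difference, and the median was 0.11 (replicate 1, -0.03; replicate 2, 0.18). The 10 widely expressed genes, grouped by name and including Cox7a2l, ranged from -0.03 to 0.14, with a median of 0.07. All 10 were positive within replicate 2 while 8 were negative within replicate 1. Cox4i1, the common form of subunit IV, had signals of 9056 and 13721 against 8545 and 12126, a difference of 0.13. Cox5a had signals of 12518 and 14702 against 13264 and 14439.8 (difference -0.03), and Cox5b of 10786 and 12403 against 11519 and 11160.2 (difference 0.03). All 3 overlapped between the populations. Cox6c, a small structural subunit, had signals of 11814 and 11998 against 11518 and 10520.3, which did not overlap, and a difference of 0.11 (limma adjusted p = 1.00, and 0.64 with the block). A second Cox6c probe set overlapped, with a difference of -0.04.

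The tissue-limited paralogues gave the members with the widest range, on dim probe sets. Cox7a1, the heart and muscle form of subunit VIIa, had signals of 121 and 104 against 45.7 and 85.7. Both Atoh1-GFP arrays lay above both dNeurog1-GFP arrays, and the difference of 0.59 came mostly from replicate 1 (0.98, against 0.21 within replicate 2). Its limma adjusted p was 0.92, and 0.32 with the block. Cox6a2, the heart and muscle form of subunit VIa, had signals of 119 and 67.6 against 115 and 39.2, a difference of 0.26 with overlap. Cox8b, the heart and muscle form of subunit VIII, failed the filter, with signals of 17.4 and 6.32 against 58.3 and 22.7. Cox7a1 and Cox6a2, the heart and muscle forms that were tested, thus had positive differences, though that of Cox6a2 was only 0.04 within replicate 1. Cox8b went the other way, with a difference of -0.69 without overlap on signals below the filter. Heart muscle markers had positive differences in 7 of 7 genes, and the part of heart cells in these values was not tested.

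Cox6b2 and Cox8c are known from testis. Cox6b2 had signals of 177 and 284 against 274 and 379, a difference of -0.46 (-0.55 and -0.38; limma adjusted p = 0.89, and 0.24 with the block). Cox8c had signals of 982 and 284 against 815 and 178. Its replicate 1 arrays were several times brighter than its replicate 2 arrays in both populations, and the difference of 0.43 had a standard error of 0.75. A second Cox8c probe set gave a difference of the other sign, -0.24, and the mean over both was 0.09. Cox4i2, the lung and hypoxia form of subunit IV, had signals of 176 and 60.3 against 120.1 and 67.1, a difference of 0.17 with opposite signs in the replicate numbers (0.45 and -0.10). Cox7b2, another testis form, failed the filter at 4.30 and 4.48 against 40.9 and 14.8.

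Complex V consists of the F1 head, which makes ATP, and the Fo membrane part with its stalks, whose ring of c subunits turns as protons pass. All 17 genes were tested and 0 passed the threshold in either model; 10 had a positive difference, with a median of 0.06 that was near equal within the replicate numbers (0.06 and 0.07). F1 genes had a median of -0.05 over 5 genes, and Fo and stalk genes one of 0.08 over 12. Atp5a1, the alpha subunit of the head, had signals of 9855 and 7648 against 11137 and 7794 (difference -0.10). Atp5b, the catalytic beta subunit, had signals of 13712 and 11248 against 12876 and 12874 (difference -0.05). Atp5c1, the rotating gamma subunit, had signals of 6869 and 9778 against 7366 and 10366 (difference -0.09). All 3 overlapped between the populations, and their limma adjusted p was 1.00 each.

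The genes of subunit c, which differ in their import sequence but give the same mature protein, had unlike values. Atp5g1 had signals of 2374 and 2781 against 3483 and 3328. Both Atoh1-GFP arrays lay below both dNeurog1-GFP arrays, with a difference of -0.40 (-0.55 within replicate 1 and -0.26 within replicate 2), a fold of 0.757 on the log2(signal + 32) scale. This was the member with the lowest unadjusted p without the block, and its limma adjusted p was 0.73, and 0.13 with the block, where the 95% interval ran from -0.71 to -0.10. Atp5g2 had signals of 5048 and 7419 against 5465 and 6635, a difference of 0.02 with overlap. Atp5g3 had signals of 14522 and 15179 against 15459 and 12875, a difference of 0.07 with overlap. The 3 promoters printed above differ as well, but Atp5g1 shares the lack of a match with Atp5g3, so that the matches did not separate Atp5g1 from the other two. Whether Atp5g1 differs from its paralogues in the comparison was not tested.

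**Figure D3:**
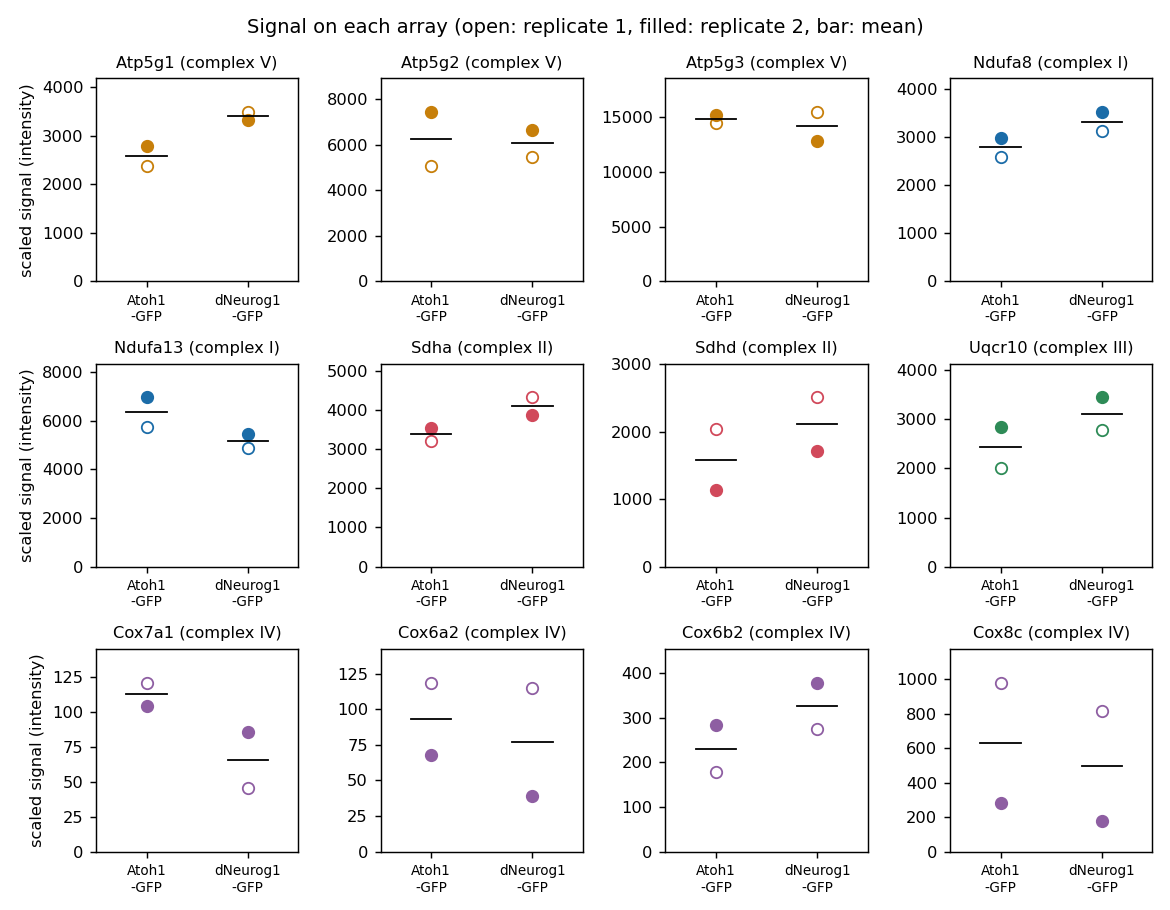
Signal on each array, on a linear axis from 0 in intensity units, for 12 members: the subunit c genes and members with differences described in the text. Open circles are replicate 1, filled circles replicate 2 and bars the mean of a population. Atp5g1, Ndufa8 and Sdha separate the populations with the lower signals in Atoh1-GFP cells, and Ndufa13 and Cox7a1 with the higher ones. Cox8c separates the replicate numbers, as do Atp5g2, Sdhd, Uqcr10, Cox6a2 and Cox6b2 less widely.

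The range between replicates was larger than the difference between populations for respiratory chain genes, as for genes in general, but the measures are unlike. The range averages 2 absolute differences between single arrays, and the other is a difference between means of 2 arrays. The range thus tends to be larger even without any effect, and the comparison does not show which source of variation is larger. The range between the 2 replicates, averaged over the populations, had a median of 0.34 over the members against a median size of the difference of 0.10, and over all genes tested these were 0.35 and 0.22. After scaling, the median of replicate 2 minus replicate 1 over the 77 members was 0.29 in the Atoh1-GFP population and 0.17 in the dNeurog1-GFP population, against 0.03 and 0.04 over all genes tested and 0.20 and 0.14 over those with a mean signal of at least 1000. Replicate 2 was the higher one in both populations for 53 of 77 members and the lower one in both for 10. Over all 12751 genes tested these counts were 5205 and 4433. Over the 4693 genes with a mean signal of at least 1000 they were 2709 and 1054. Complex III (medians 0.49 and 0.26) and complex I (0.35 and 0.28) shifted upward, and complex II did not (-0.04 and -0.26). Ndufc1 was an extreme among bright genes, with 4752 and 11247 against 5464 and 9766, and a difference between the populations of 0.001. It was picked out after its values were seen. A second Ndufc1 probe set did not rise in replicate 2, with 4753 and 4294 against 4523 and 4067, so the shift belongs to the brightest probe set. The arrays also differ in the shape of their signals: the median signal of all probe sets was 138 and 115 on the replicate 1 arrays and 76.0 and 75.4 on the replicate 2 arrays. The part of this shape in the shift was not tested, and the labels do not say what the number stands for.

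**Figure D4:**
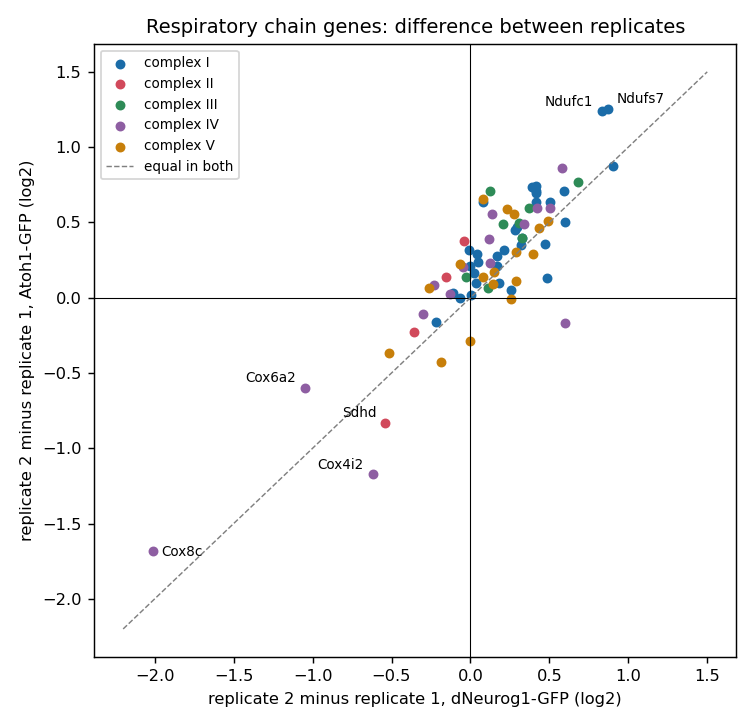
Replicate 2 minus replicate 1 in dNeurog1-GFP cells (horizontal axis) and in Atoh1-GFP cells (vertical axis), in log2 units, for the 77 members, coloured by complex; the dashed line marks equal values. Most points (53 of 77, where 5205 of all 12751 genes tested do so) lie above 0 on both axes, and Cox8c lies far below 0 on both.

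Many members were read by several probe sets, which often disagreed in sign. For 46 of 77 members more than 1 probe set passed the filter; the signs were the same within 22 genes and mixed within 24, with a median spread of 0.17 log2 units between the probe sets of a gene. Sdha was the single gene with a spread of at least 1. Of the 81 probe sets used, 11 had the suffix that marks probes shared among several transcripts and 4 the suffix that marks possible cross-hybridization, and values of these genes could include near-identical copies or pseudogenes.

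Genes that serve the chain without being its subunits were taken from lists by function. Electron carriers and the subunits outside the naming rule also lay near 0: 0 of 7 tested passed in either model, with a median of -0.03. Cycs, cytochrome c itself, had signals of 13601 and 12063 against 13952 and 12376 (difference -0.04), and Cyc1, the cytochrome of complex III, of 7279 and 8154 against 7500.1 and 8215 (difference -0.03). Both overlapped between the populations and were named after their values were seen. Among assembly factors, which build the complexes but leave them when done, 0 of 14 for complex I, 0 of 4 for complex II, 0 of 5 for complex III, 0 of 17 for complex IV and 0 of 4 for complex V passed in either model. Their medians were -0.03, 0.05, -0.15, 0.01 and -0.21 in that order.

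Single assembly factors had larger differences than any complex I subunit. Ndufaf6 had signals of 276 and 319.8 against 478 and 453, a difference of -0.60 (limma adjusted p = 0.58, and 0.13 with the block). Ndufaf7, a methyltransferase that acts on complex I, had signals of 596 and 581 against 418 and 379.7, a difference of 0.53 (limma adjusted p = 0.63, and 0.13 with the block). Both separated the populations, in opposite directions. Atpaf1, a chaperone of the F1 beta subunit, had signals of 418 and 754 against 819.9 and 921, a difference of -0.60 (-0.92 and -0.28). Among carriers and porins 0 of 6 tested passed, and Slc25a5, an adenine nucleotide translocase that exchanges ADP for ATP, had signals of 7845 and 8449 against 11484 and 10076, a difference of -0.40 without overlap.

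Regulators of mitochondrial biogenesis had a median of -0.18 over 14 genes tested, of which 0 passed in either model, 10 had a negative difference. Below without overlap were 5 (against 19.0% of all genes tested), and above were 2 (against 16.1%), Nrf1 with a difference of 0.21 and Esrra with one of 0.28. Pprc1, a coactivator of the PGC-1 family, had signals of 919 and 795 against 1306 and 1250.0, a difference of -0.56 (limma adjusted p = 0.55, and 0.063 with the block). Gabpb2, a subunit of the ETS factor GABP, had 922 and 769 against 1395 and 1057, a difference of -0.51. Tfb1m, a methyltransferase of the mitochondrial ribosomal RNA, had 1038 and 832 against 1433 and 1170.1, a difference of -0.46. Pprc1, Gabpb2 and Tfb1m had lower signals on both Atoh1-GFP arrays while the median of the respiratory chain members was -0.0005; the difference between the lists was not tested.

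In the citrate cycle, which feeds the chain with NADH and succinate, 1 of 12 genes tested passed, with the block, where 6.61% of all genes passed. This was Suclg2, the GDP-forming beta subunit of succinyl-CoA ligase, with signals of 1208 and 1106 against 1689 and 2030.4, a difference of -0.67 (limma adjusted p = 0.43, and 0.049 with the block). The other citrate cycle genes ranged closer to 0, and the list had a median of -0.06.

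Mitochondrial ribosomal proteins, which translate the subunits encoded in mitochondrial DNA, had mostly negative differences. Of 76 genes tested 69 had a negative difference, and the median was -0.18 (replicate 1, -0.24; replicate 2, -0.16). Negative in both replicate numbers were 52 of 76, where the background is 33.8% of all genes tested, and 25 lay below without overlap, where the background is 19.0%. With limma 0 passed without the block, and 2 of 76 with it, a smaller share than the 6.61% of all genes called in that model. They were Mrps15 (1284 and 1738 against 1886 and 2609, difference -0.56, adjusted p = 0.044 with the block) and Mrps18c (2069.9 and 2357 against 3052 and 3472, difference -0.55, adjusted p = 0.042 with the block). The largest negative difference of the list, -0.67, was that of Mrps28, with 699 and 1393 against 1509 and 1681. Dividing progenitor markers moved the same way, as given above, and their part in the ribosomal protein values was not tested. This list, like the others, was drawn up with earlier results of these arrays known, and its contrast with the respiratory chain is a description of counts.

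**Figure D5:**
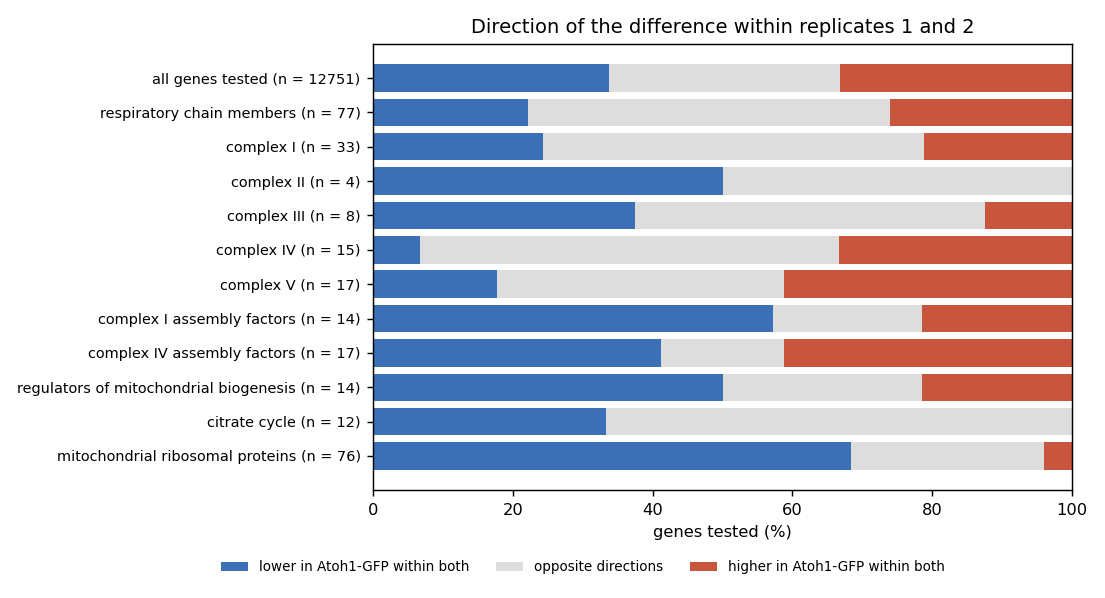
Share of genes tested, in percent, that were lower in Atoh1-GFP within both replicate numbers (blue), higher within both (red) or opposite (grey), for all genes, the respiratory chain, each complex and the other lists with at least 10 genes tested. Opposite directions make up 51.9% of the respiratory chain and 33.0% of all genes, and the mitochondrial ribosomal proteins have 52 of 76 genes on the lower side.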

How the data were processed

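RNA was measured on 4 arrays, 2 per population. The authors deposited MAS5 signal intensities, per the submitters' processing notes; the MAS5 version is not stated there. Intensities were rescaled to a trimmed mean of 500 (2% off each end), because the deposited arrays had been scaled differently by replicate number. The 64 control probe sets were left out. Probe sets at or above the 40th percentile of mean deposited signal (42.5) were kept, which left 27022 probe sets and 12751 genes, each read from its brightest probe set with a single symbol.

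Differences on log2(intensity + 32) were tested in R 4.3.3 with limma 3.58.1 (functions lmFit and eBayes, trend allowed; two-sided), with Benjamini-Hochberg adjustment over all genes tested, after the procedure was tested on simulated data. The simulated arrays varied independently and were fitted without the block, so the simulation did not cover the block model or arrays that vary together. P-values measure only the spread between these samples. The number of arrays limits the precision. Medians and counts describe gene lists, and no list was tested.

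Genes named are core subunits, tissue-limited paralogues, subunit c genes, and in each complex the 3 largest differences without overlap in each direction; of other lists, up to 3 such genes. Others are said to be chosen after their values were seen. Members and lists were chosen with earlier results of these data known. Alternatives covered the block, scaling, pseudocount, filter, choice of probe set, intensity trend, complex membership and each array left out.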

Additional observations from a re-analysis of the deposited data

How the results depend on the processing

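The count of members called by limma was 0 in each of the alternatives run, with 0 to 5 members at an unadjusted p under 0.05. Over all genes the number called moved from 21 to 0 without the intensity trend. With the replicate number as a block it was 843, and 1169 with the block on the signals as deposited. It was 13 on those signals without the block, and 369, 213, 151 and 164 without Atoh1-GFP replicate 1, Atoh1-GFP replicate 2, dNeurog1-GFP replicate 1 and dNeurog1-GFP replicate 2, where the lone array is assumed to vary like the others. The labels do not say that equal numbers pair samples; deviations of same-numbered samples correlated at 0.64 across genes, and the block called 0 members. The median of complex V was -0.0497 with quantile normalization, 0.0406 with a common 75th percentile, 0.027 with the mean over a gene's probe sets and 0.0734 without probe sets open to cross-hybridization. On the signals as deposited, 2 members in place of 12 did not overlap (11.2% of all genes tested, in place of 35.1%). Leaving out each array in turn moved the median of all members between -0.15 and 0.17, of complex I between -0.20 and 0.18, of complex II between -0.23 and -0.08, of complex III between -0.29 and 0.17, of complex IV between -0.0719 and 0.13, and of complex V between -0.046 and 0.16. The median of complex II stayed negative when each array was left out, but was 0.0181 with the mean over a gene's probe sets, so no median had one sign in every alternative. The cause was not tested. With 2 arrays a population, single differences under about the half-width of the interval were not detectable, and the adjusted threshold asks for larger ones. Without the block, 0 of 7 heart muscle markers passed it, although the smallest of their differences was 1.02.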
